A study of Mus musculus with 24 samples.

Results

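Bone marrow-derived macrophages that lack TBK1 by label were compared with and without a further loss of IKKe, after 8 h with R837. The members are the 3 libraries labelled TBK1-cKD ∆IKKe + R837 8h and the 3 labelled TBK1-cKD ∆control + R837 8h, which makes 6 of the 24 RNA-seq libraries of the series. They were chosen by title, and both they and the gene lists below were chosen with earlier results of these data known. TBK1-cKD is called a conditional knockout in the series' design text, and the allele, the exons it removes, what drives its deletion and how IKKe was removed are not described in the labels. All 6 libraries share the TBK1-cKD label and R837, so that the ∆control cells are themselves TBK1-deficient by label. The other groups used below are TBK1-WT ∆IKKe and TBK1-WT ∆control after R837, and TBK1-cKD ∆IKKe and TBK1-cKD ∆control left untreated, with 3 libraries each. Macrophages were grown from bone marrow with M-CSF, the growth factor that drives macrophage differentiation. Every record, also those labelled TBK1-cKD, names wild-type C57BL/6N mice, and the ages of the mice are not given there.

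TBK1 and IKKe, the product of Ikbke, are related serine/threonine kinases. Downstream of several innate sensors they phosphorylate the transcription factors IRF3 and IRF7, and at receptor complexes they also phosphorylate proteins of the NF-kB and cell death pathways, RIPK1 among them. R837 (imiquimod) is a small-molecule agonist of mouse TLR7, an endosomal receptor for single-stranded RNA that signals through MyD88, the IRAK kinases and TRAF6 to the canonical IKK complex, NF-kB and the MAP kinases. N4BP1 and caspase-8, which the series' title names, are known in macrophages as a brake on cytokine production after TLR engagement and as the protease that cleaves this brake.

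With the ∆IKKe label, TBK1-cKD macrophages had higher RNA for nearly the whole set of inflammatory cytokines, Il1a, Il6 and Csf3 among them. They also had more RNA for nitric oxide synthase, prostaglandin synthase and the class I antigen presentation machinery. Many interferon-induced genes were higher as well, while Cxcl10 was lower and Ifit1 did not pass the test. Cyclin D1 and most of the cell cycle genes tested were lower. Of 14681 genes tested, 2683 were higher (18.3%) and 2384 lower (16.2%) at an adjusted p under 0.05 in edgeR's quasi-likelihood F test, with Benjamini-Hochberg adjustment over all genes tested, 5067 in all (34.5%). In 5407 genes (36.8%) the groups did not overlap, with the libraries labelled ∆IKKe all above ∆control in 2927 (19.9%) and all below in 2480 (16.9%). The median log2 change over all genes tested was 0.031.

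The 6 libraries held 32.8, 36.7 and 40.3 M gene counts with the ∆IKKe label, against 37.6, 19.7 and 29.3 M in ∆control. Levels are given as CPM (gene counts scaled to a common library size of 1 M) after TMM scaling, in the order replicate 1, 2 and 3, where the number follows the order of the records and pairs nothing. The third ∆IKKe library stood apart over all genes tested and in nuclear RNA. Its Pearson correlation with ∆IKKe replicates 1 and 2, on log2(CPM after TMM + 0.5), was 0.986 and 0.988. Replicates 1 and 2 correlated at 0.998 with each other, and pairs of a ∆IKKe and a ∆control library at 0.962 to 0.989. Replicate 2 of ∆control correlated at 0.985 with each of the other ∆control libraries. Malat1 had 51.8, 44.7 and 420.1 CPM in the libraries labelled ∆IKKe, against 48, 43.3 and 52.1 CPM in the ∆control libraries, and Neat1 had 36.6, 46.1 and 879 CPM in the libraries labelled ∆IKKe, against 29.9, 25.1 and 32.6 CPM in the ∆control libraries. The 2 other ∆IKKe libraries lay at the ∆control level for Malat1 and above it for Neat1. Their nuclear RNA level, the mean of log2(CPM + 0.5) over Malat1 and Neat1 before TMM scaling, was 9.03 in that library, against 4.94 to 5.24 in the other 5, and the untreated libraries of the series were at 9.07 to 9.62. Reads outside gene counts made up 10.8% of that library, against 8.41% to 8.93% in the other 5. A ∆control library, replicate 2, was the shallowest of the 24 and had a count for 14226 genes, against 17592 and 17948 in the other ∆control libraries. Without the third ∆IKKe library, 2251 genes were higher (15.3%) and 1944 lower (13.2%), and 2004 and 1715 of these were among the calls of the full set. With replicate 2 of ∆control left out as well, 2104 genes were higher (14.3%) and 1950 lower (13.3%), 4054 in all (27.6%).

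The gene targeted by the ∆IKKe label was read first. Ikbke (ENSMUSG00000042349, chr1:131254343-131279606, GRCm38) had 77.7, 82.7 and 259 CPM in the libraries labelled ∆IKKe, against 239.5, 239 and 248 CPM in the ∆control libraries. Replicates 1 and 2 with the ∆IKKe label lay far below the ∆control libraries, and replicate 3, the library with high nuclear RNA, lay above all of them. The log2 difference was -0.79 ± 0.30 (SE; edgeR adjusted p = 0.0449), and -1.59 without replicate 3. With any 1 of the other 5 libraries left out the adjusted p was 0.0757 to 0.183. Replicate 3 therefore goes against its label for Ikbke RNA, and all 3 are called libraries labelled ∆IKKe here. In untreated TBK1-cKD cells Ikbke had 80.6, 76.9 and 81.3 CPM with the ∆IKKe label, against 71.5, 73.8 and 76.1 CPM in ∆control. There all libraries labelled ∆IKKe lay slightly above ∆control, against the labelled direction. In TBK1-WT cells after R837 the log2 change of Ikbke was -1.92, in the labelled direction. That comparison includes a ∆control library of high nuclear RNA level, described below. Tbk1 had 115, 117 and 136 CPM in the libraries labelled ∆IKKe, against 103, 93.4 and 107 CPM in the ∆control libraries, and the TBK1-WT ∆control libraries had 148, 118 and 123 CPM. Exonic counts over the whole gene do not show which exons an allele removes, so that neither gene's RNA level reads out the protein.

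**Figure D1:**
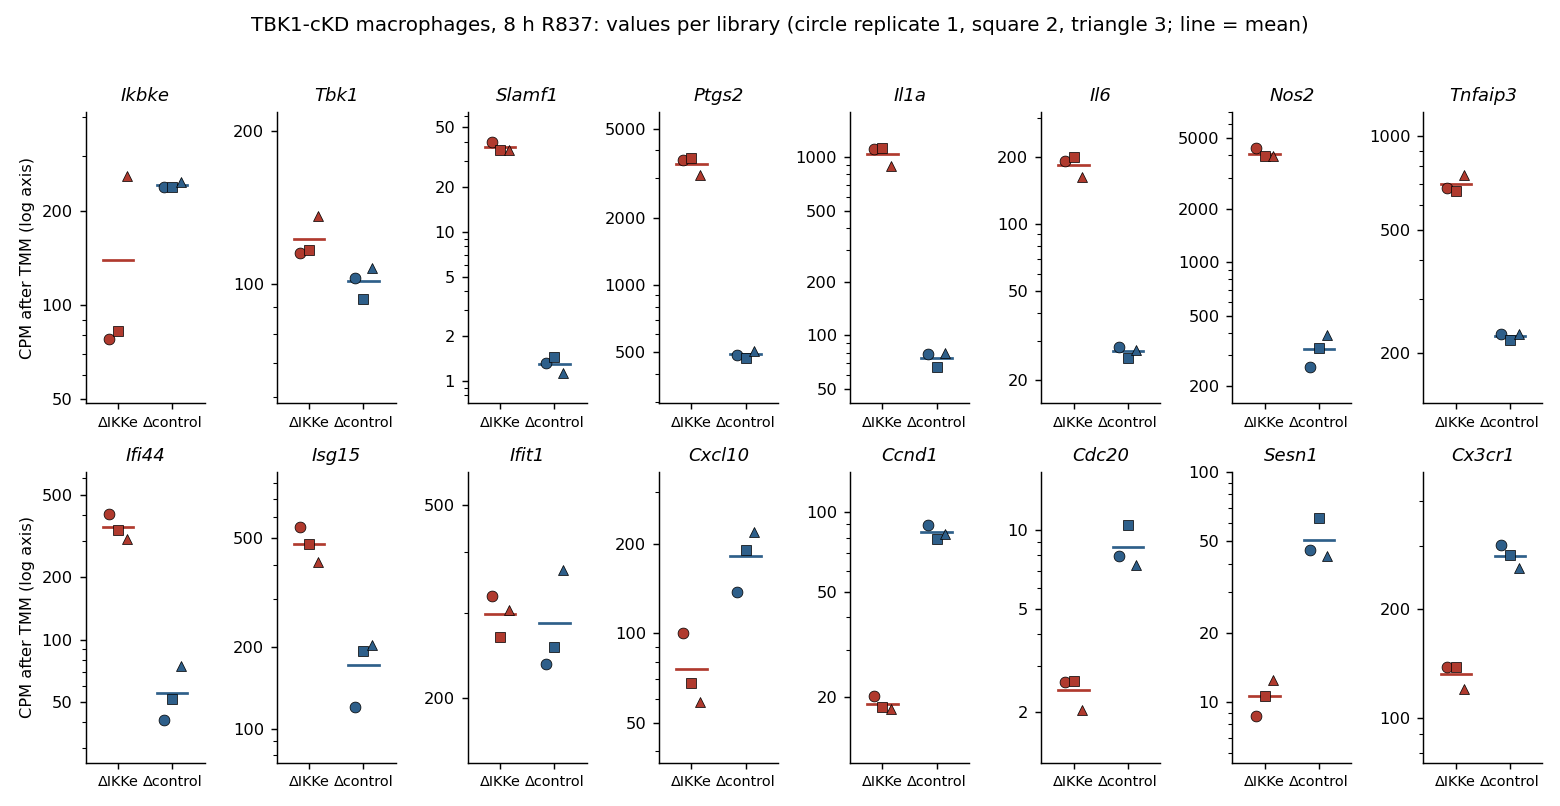
Values of 16 genes in the 6 libraries of TBK1-cKD macrophages after 8 h of R837, as CPM after TMM scaling on log axes, with libraries labelled ∆IKKe left of ∆control; circles, squares and triangles are replicates 1, 2 and 3 and lines are group means. The triangle for Ikbke with the ∆IKKe label sits at 259 CPM, level with the ∆control libraries, whereas for Slamf1, Il1a, Nos2 and Ccnd1 all 3 libraries of one group lie on one side of the other.

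Inflammatory cytokines rose almost as a set. Of 24 members tested, 22 were higher and 0 lower, with a median log2 change of 1.58 against 0.031 over all genes tested, and the counts were 22 and 0 without the third ∆IKKe library. Il1a, an alarmin cytokine of the interleukin-1 family, had 1111, 1121 and 887 CPM in the libraries labelled ∆IKKe, against 78.2, 66.5 and 79.8 CPM in the ∆control libraries. Il6 had 192, 199 and 163 CPM in the libraries labelled ∆IKKe, against 28.2, 25.1 and 27.2 CPM in the ∆control libraries. Csf3, which encodes the granulocyte growth factor G-CSF, had 59.2, 64.2 and 76.3 CPM in the libraries labelled ∆IKKe, against 6.95, 4.0 and 8.63 CPM in the ∆control libraries. In all 3 genes every library labelled ∆IKKe lay above every ∆control library. Il1a rose by 3.79 ± 0.12 on the log2 scale (SE; edgeR adjusted p = 1.16e-14), Il6 by 2.78 ± 0.13 and Csf3 by 3.32 ± 0.26. Il12b, the p40 subunit shared by interleukin-12 and interleukin-23, had 524, 521 and 406 CPM in the libraries labelled ∆IKKe, against 94.4, 79.8 and 106 CPM in the ∆control libraries, a log2 change of 2.37 ± 0.14. Il23a, the partner of p40 in interleukin-23, had 2.5, 2.61 and 1.7 CPM in the libraries labelled ∆IKKe, against 0.147, 0 and 0.114 CPM in the ∆control libraries, and since ∆control was at the limit of counting its fold is not given. Il10, an anti-inflammatory cytokine, rose as well, with 32.4, 26.6 and 26.4 CPM in the libraries labelled ∆IKKe, against 10.8, 13.9 and 12.4 CPM in the ∆control libraries. Inhba, the activin A subunit, rose by 3.72, Lif by 3.7, Il33 by 3.55, Il19 by 3.41 and Tnfsf15 by 3.37. Lif, Il33 and Tnfsf15 were below 1 CPM in every ∆control library. At the other end, Tnf had 257, 271 and 296 CPM in the libraries labelled ∆IKKe, against 229.6, 226 and 219.8 CPM in the ∆control libraries. Its groups did not overlap, and the log2 change was 0.28 ± 0.071. Il12a and Tnfsf10 were the 2 members that did not pass the test.

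The rise of Il1b was moderate in fold and large in level. Il1b had 7131, 7557 and 6523 CPM in the libraries labelled ∆IKKe, against 2334, 2354 and 2344 CPM in the ∆control libraries, a log2 change of 1.59 ± 0.12 (edgeR adjusted p = 1.68e-09). All libraries labelled ∆IKKe lay above ∆control. Il1rn, the antagonist of the interleukin-1 receptor, rose by 1.35.

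Some chemokines rose as well. Of 13 chemokines for neutrophils and monocytes that were tested, 6 were higher and 2 lower, with a median of 0.28. Over all genes tested 18.3% were higher and 16.2% lower, so that the falls were no more frequent than in all genes. The neutrophil attractants Cxcl1, Cxcl2, Cxcl3 and Cxcl5 rose by 1.85, 1.93, 1.99 and 1.7, and the macrophage inflammatory proteins Ccl3 and Ccl4 by 1.28 and 1.01. Ccl6 and Pf4 fell by 0.50 and 0.50. Without the third ∆IKKe library 8 members were higher and 1 lower, Ccl6 no longer passed (-0.34), and Ccl22 and Cxcl16 did. Pf4 did not pass without both that library and ∆control replicate 2 (-0.32).

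Effectors of the activated macrophage were the second group with a large median, 1.45 on the log2 scale, with 24 of 27 members higher and 0 lower. Nos2, the inducible nitric oxide synthase, had 4397, 3953 and 3948 CPM in the libraries labelled ∆IKKe, against 257, 328 and 389 CPM in the ∆control libraries. The 2 groups lay about an order of magnitude apart, and the log2 change was 3.66 ± 0.13 (edgeR adjusted p = 5.67e-14). Genes that supply or recycle its substrate arginine moved with it. Slc7a2, an arginine transporter, rose by 1.55 and Ass1, argininosuccinate synthase, by 1.59. Arg2, the mitochondrial arginase, had 43.9, 39.6 and 35.1 CPM in the libraries labelled ∆IKKe, against 4.02, 5.77 and 4.51 CPM in the ∆control libraries, and Gch1, which makes the tetrahydrobiopterin cofactor, rose by 0.51. Ptgs2, the inducible prostaglandin synthase, had 3619, 3719 and 3108 CPM in the libraries labelled ∆IKKe, against 488, 472 and 505 CPM in the ∆control libraries, and Ptges, the terminal enzyme for prostaglandin E, rose by 1.6. Acod1, which makes itaconate, had 3554, 3307 and 3057 CPM in the libraries labelled ∆IKKe, against 1349, 1419 and 1595 CPM in the ∆control libraries. For each of these genes the libraries labelled ∆IKKe were all above ∆control. Saa3, a serum amyloid, had 6863, 8489 and 17846 CPM in the libraries labelled ∆IKKe, against 4147, 3775 and 4111 CPM in the ∆control libraries. Replicate 3 alone was more than the other ∆IKKe libraries together, and the log2 change was 1.46 ± 0.34 with it and 0.94 without it. Complement genes rose too, Cfb by 3.5 and C3 by 1.47. Without both libraries that stand apart 21 members were higher, and without the third ∆IKKe library 24 were.

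**Figure D2:**
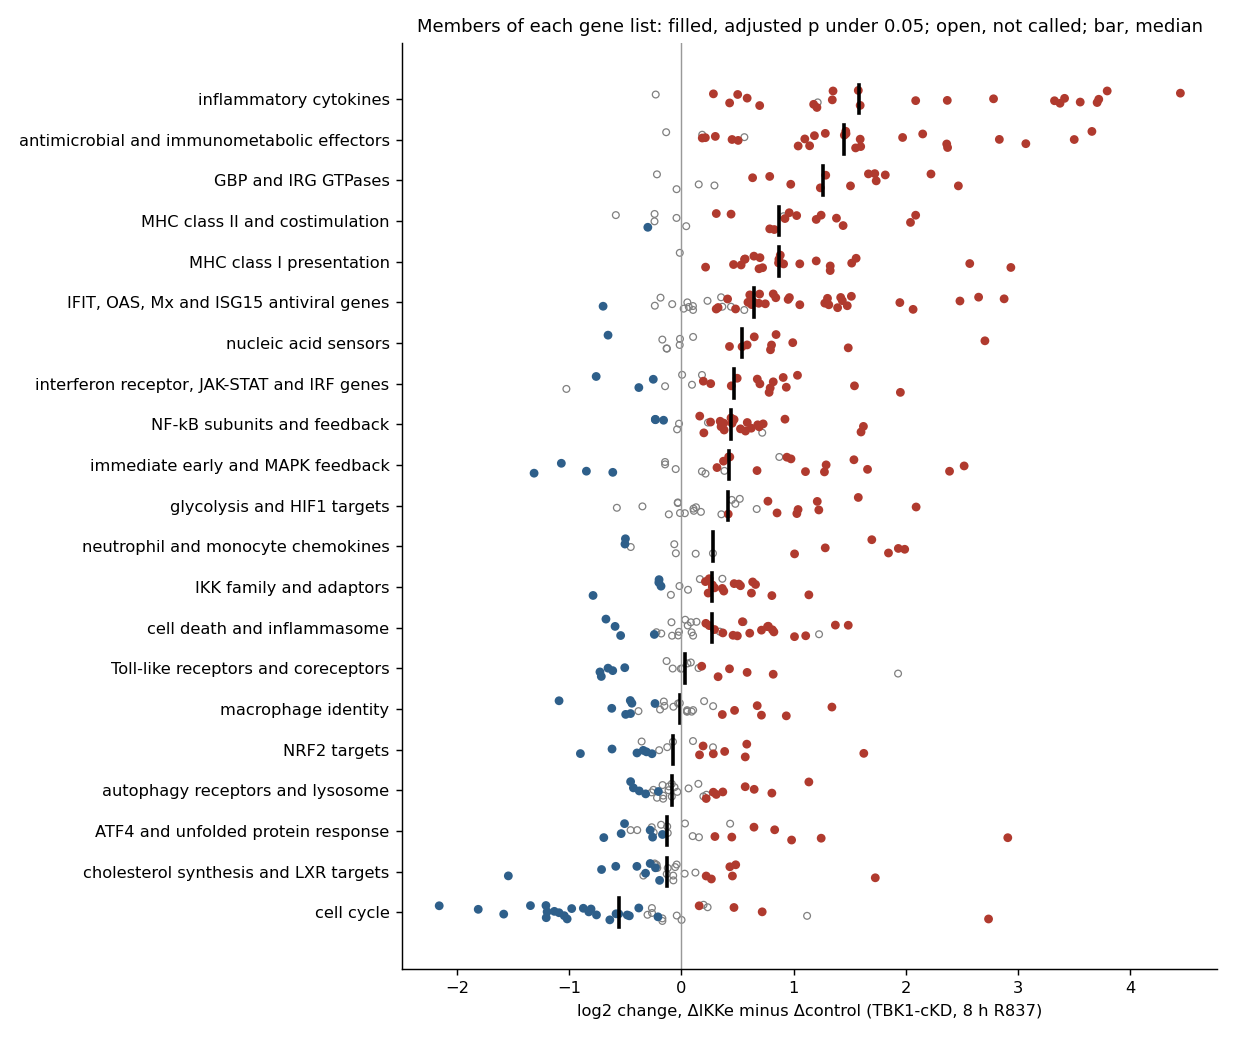
Log2 change with the ∆IKKe label over ∆control in TBK1-cKD macrophages after 8 h of R837, for the tested members of 21 gene lists; each point is a gene, filled where the adjusted p was under 0.05 (red higher, blue lower), open where it was not, and the black bar is the list's median. Medians run from 1.58 for inflammatory cytokines to -0.56 for cell cycle genes, and lists such as Toll-like receptors and macrophage identity lie around 0.

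Some of the largest changes were outside these lists. Slamf1, a homotypic receptor of the SLAM family, had 39.7, 35.6 and 35.5 CPM in the libraries labelled ∆IKKe, against 1.32, 1.44 and 1.14 CPM in the ∆control libraries. The groups did not overlap, and Slamf1 rose by 4.83 ± 0.21 (SE; edgeR adjusted p = 5.86e-13). Plau, the urokinase plasminogen activator, fell by 1.63 ± 0.13, with 14, 14 and 12.8 CPM in the libraries labelled ∆IKKe, against 50.7, 37 and 37.9 CPM in the ∆control libraries. Further large rises were those of U90926, the glutamate transporter Slc1a2, the myeloid receptor Trem1 and the surface antigen Ly6a, with log2 changes of 3.61, 3.57, 3.34 and 3.16, beside the cytokines and effectors named above.

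**Figure D3:**
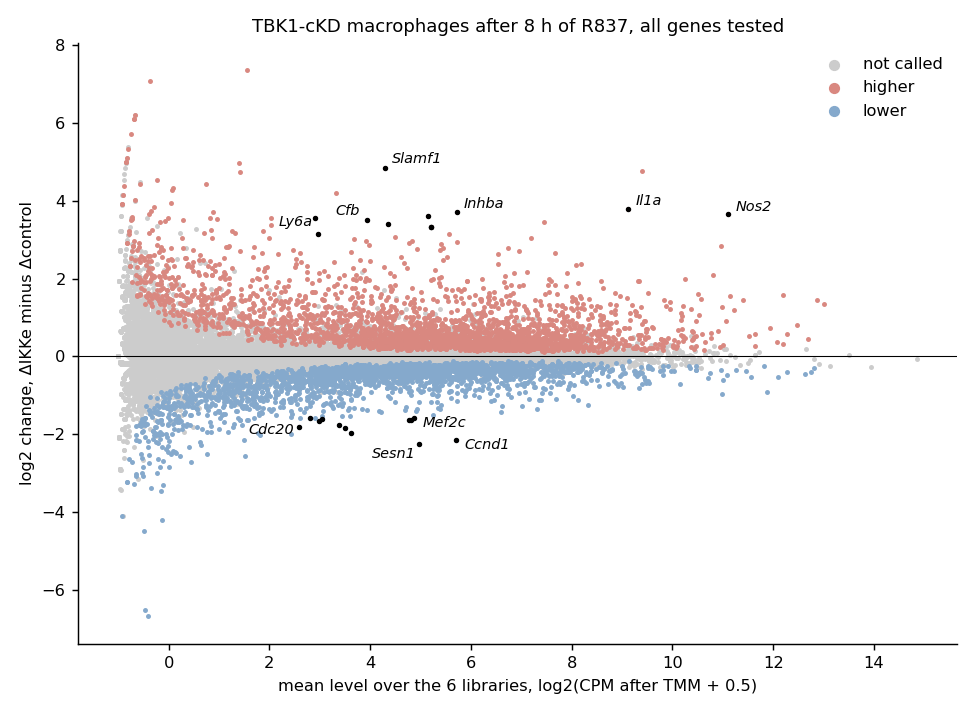
Log2 change with the ∆IKKe label over ∆control against the mean level over the 6 libraries, as log2(CPM after TMM + 0.5), for 14681 genes; red and blue points are genes called higher and lower and black points are the largest rises and falls by the naming rule. Il1a and Nos2 combine a large rise with a high level, and no named fall reaches the size of the named rises.

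Genes of the NF-kB pathway itself had a smaller median change than the cytokines. Of 29 NF-kB subunits and feedback genes tested, 22 were higher and 3 lower, with a median of 0.44, and 19 and 2 without the third ∆IKKe library. Tnfaip3, which encodes the ubiquitin-editing inhibitor A20, had 684, 668 and 748 CPM in the libraries labelled ∆IKKe, against 231, 221 and 230.5 CPM in the ∆control libraries, a log2 change of 1.62 ± 0.076. Traf1, an adaptor of the TNF receptor family, rose by 1.6. Nfkbia, the inhibitor IkB-alpha, had 999, 1006 and 1029 CPM in the libraries labelled ∆IKKe, against 776, 831 and 769.7 CPM in the ∆control libraries, a log2 change of 0.35 ± 0.063. Its groups did not overlap. The subunits Nfkb2, Relb, Nfkb1 and Rela rose by 0.69, 0.36, 0.26 and 0.20, while Rel fell by 0.23. Leaving out any 1 of the 5 libraries other than the third ∆IKKe one ended the call of Rela, with log2 changes of 0.15 to 0.22, and leaving out any 1 of 4 ended that of Rel, with -0.23 to -0.16. Zc3h12a, which encodes the cytokine RNA nuclease Regnase-1, rose by 0.62.

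Among the kinases and adaptors themselves the changes were smaller still, with 16 of 25 members higher and 4 lower and a median of 0.28. All genes tested had 18.3% higher and 16.2% lower. N4bp1 had 468, 468 and 502 CPM in the libraries labelled ∆IKKe, against 329, 317 and 353 CPM in the ∆control libraries, a log2 change of 0.53 ± 0.057 (edgeR adjusted p = 3.71e-07). Casp8 had 139, 128 and 119.8 CPM in the libraries labelled ∆IKKe, against 102, 108 and 117 CPM in the ∆control libraries, a log2 change of 0.25 ± 0.055. In both genes the libraries labelled ∆IKKe were above ∆control. Tax1bp1, an autophagy receptor that also adapts A20, rose the most of the list, with 564, 539 and 717 CPM in the libraries labelled ∆IKKe, against 244, 312 and 274 CPM in the ∆control libraries. Of the canonical IKK complex, Ikbkb rose by 0.63 and Chuk by 0.21, while Ikbkg, its regulatory subunit, fell by 0.20. Chuk no longer passed without ∆control replicate 2, at 0.12. Tank, Azi2 and Tbkbp1, the scaffold proteins that bind TBK1 and IKKe, rose by 0.51, 0.47 and 0.62. Irak1 fell by 0.20 and Irak2 and Irak3 rose by 0.24 and 0.38, Irak2 no longer passing without ∆control replicate 3 (0.18). Myd88 was at 0.058 and did not pass. Tbk1, Optn and Ripk1 passed only with the third ∆IKKe library, and without it the counts were 13 higher and 5 lower, Irak4 being the added fall. Ripk1 did not pass without ∆control replicate 2 either (0.23).

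Of 36 genes of cell death and the inflammasome tested, 17 were higher and 4 lower, beside 18.3% higher and 16.2% lower over all genes tested. Mlkl, the executioner of necroptosis, had 83, 74.4 and 88.2 CPM in the libraries labelled ∆IKKe, against 24.4, 37.8 and 33.1 CPM in the ∆control libraries, a log2 change of 1.37 ± 0.13. Ripk3, the kinase that activates it, was at 0.033 and did not pass, and Ripk1 had 114, 113 and 136 CPM in the libraries labelled ∆IKKe, against 101, 90.1 and 106 CPM in the ∆control libraries. Zbp1, a nucleic acid sensor that engages RIPK3, rose by 1.49. Nlrp3, an inflammasome sensor, had 800.3, 802 and 734 CPM in the libraries labelled ∆IKKe, against 375, 344 and 366 CPM in the ∆control libraries, and the pore former Gsdmd and the proteases Casp1 and Casp4 rose by 0.77, 0.54 and 0.81. Pycard, the adaptor that links sensor and caspase-1, went the other way with 85.5, 76.9 and 63.9 CPM in the libraries labelled ∆IKKe, against 117, 118 and 125 CPM in the ∆control libraries, a log2 change of -0.67 ± 0.087. Without the third ∆IKKe library 13 were higher and 5 lower.

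Interferon-induced genes did not move together. The list of IFIT, OAS, Mx and ISG15 antiviral genes had 29 of 43 tested members higher and 1 lower, with a median log2 change of 0.64. Ifi44 had 404, 337 and 305 CPM in the libraries labelled ∆IKKe, against 40.8, 51.5 and 74.5 CPM in the ∆control libraries. Isg15, a ubiquitin-like modifier, had 549.6, 475 and 409 CPM in the libraries labelled ∆IKKe, against 120.0, 193 and 202 CPM in the ∆control libraries. Mx1, an antiviral GTPase, had 180.3, 149 and 166 CPM in the libraries labelled ∆IKKe, against 31.6, 36.8 and 50.1 CPM in the ∆control libraries. In these 3 genes every library labelled ∆IKKe was above every ∆control library, and the log2 changes were 2.65 ± 0.19, 1.48 ± 0.17 and 2.06 ± 0.23. Ifit1, which binds viral RNA caps, had 325, 268 and 304 CPM in the libraries labelled ∆IKKe, against 235, 255 and 367 CPM in the ∆control libraries. The groups overlapped, and the log2 change was 0.065 ± 0.21 (edgeR adjusted p = 0.833). Ifit2, Ifit3 and Cmpk2 were at 0.56, 0.44 and -0.24 and did not pass either. Rsad2, which encodes the antiviral enzyme viperin, was the only member lower, with 387, 298 and 282 CPM in the libraries labelled ∆IKKe, against 424, 499.7 and 647 CPM in the ∆control libraries. Its log2 change was -0.70 ± 0.22 (edgeR adjusted p = 0.0198), and -0.61 with an adjusted p of 0.0717 without the third ∆IKKe library. The call of Rsad2 was also lost without ∆IKKe replicate 2, at -0.64, or ∆control replicate 3, at -0.52.

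The interferon-induced chemokines did not move together either. Cxcl10 had 100.1, 68.3 and 58.6 CPM in the libraries labelled ∆IKKe, against 138, 190.3 and 219 CPM in the ∆control libraries. All libraries labelled ∆IKKe were below ∆control, and Cxcl10 fell by 1.27 ± 0.26 (edgeR adjusted p = 0.000735). Cxcl9, which shares the receptor CXCR3 with Cxcl10, had 25.5, 18.6 and 33.5 CPM in the libraries labelled ∆IKKe, against 2.46, 3.33 and 4.16 CPM in the ∆control libraries and rose by 2.97 ± 0.31. Ccl5 had 1649, 1869 and 2316 CPM in the libraries labelled ∆IKKe, against 487, 474 and 513 CPM in the ∆control libraries, and Cxcl11 rose by 2.19. In all, 5 of 8 members were higher and 1 lower, with and without the third ∆IKKe library. RNA of the interferons themselves was at the limit of counting. Of the 19 listed genes for type I and type III interferons none had enough counts to be tested, 16 had none in the 6 libraries, and Ifnb1 had 2, 2 and 2 counts with the ∆IKKe label, against 6, 0 and 4 in ∆control.

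**Figure D4:**
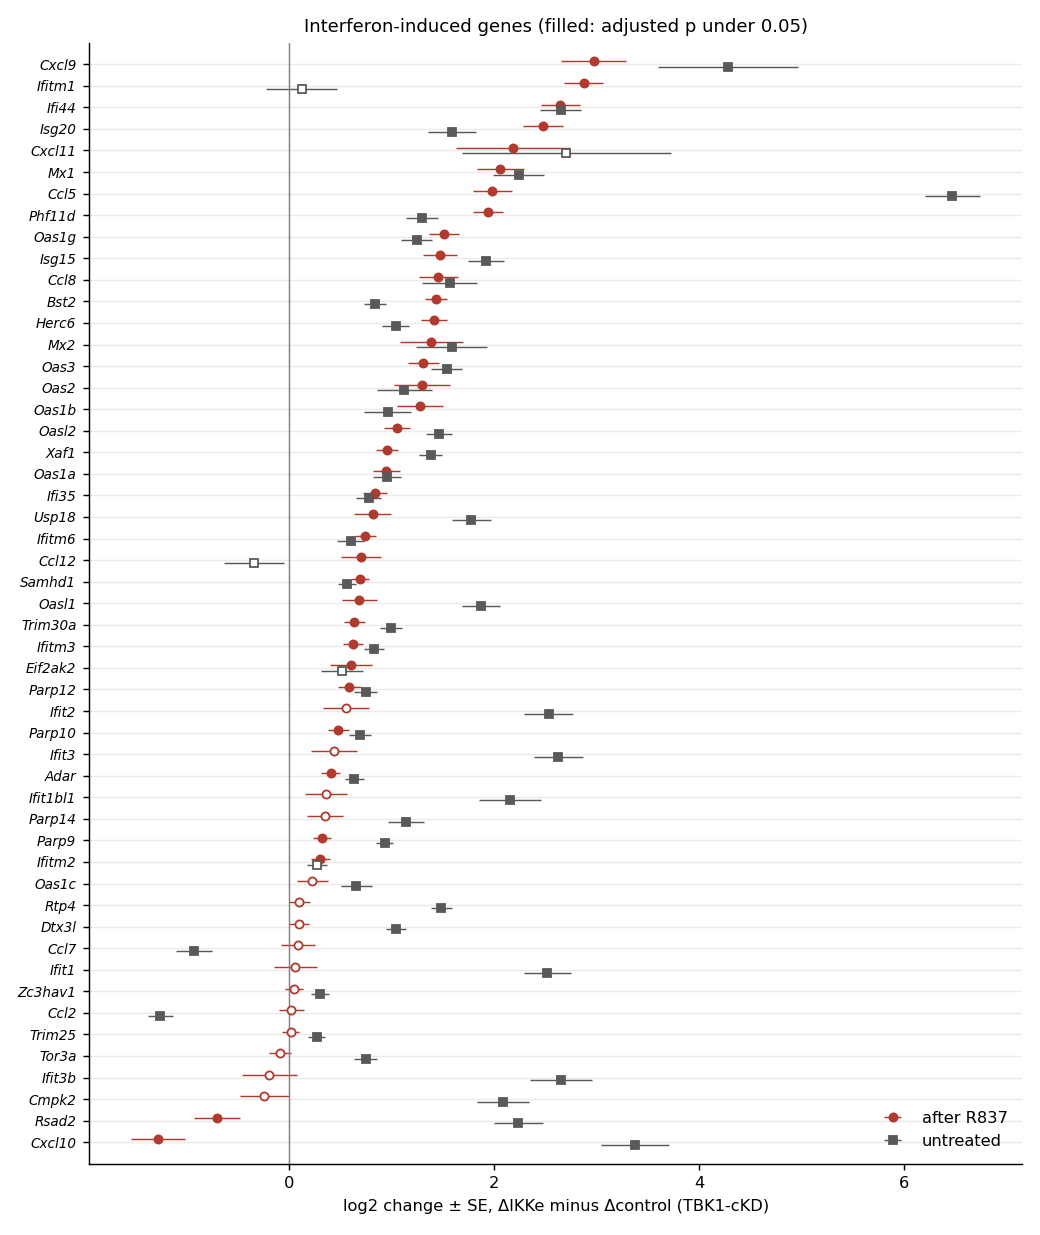
Log2 change (± SE) with the ∆IKKe label over ∆control in TBK1-cKD macrophages for antiviral genes and interferon-induced chemokines, after 8 h of R837 (red circles) and untreated (grey squares); filled symbols have an adjusted p under 0.05. Ifi44, Mx1 and Isg20 were higher in both, whereas Cxcl10, Rsad2, Cmpk2 and Ifit1 lie far to the right untreated and near or left of 0 after R837.

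Of the transcription factors that act on these genes, Irf7, the factor that TBK1 and IKKe phosphorylate, had 1025, 963 and 1052 CPM in the libraries labelled ∆IKKe, against 197, 274 and 315 CPM in the ∆control libraries. It rose by 1.95 ± 0.19 (edgeR adjusted p = 6.86e-08), with all libraries labelled ∆IKKe above ∆control. Irf3 and Irf9 were at 0.093 and 0.005 and did not pass. Stat2 and Jak2 rose by 0.70 and 1.54. Irf5, a further IRF downstream of TLR7, had 181, 181 and 186 CPM in the libraries labelled ∆IKKe, against 312, 310.1 and 308 CPM in the ∆control libraries and fell by 0.76 ± 0.049, and Irf1 fell by 0.38. Over 22 interferon receptor, JAK-STAT and IRF genes 14 were higher and 3 lower, with a median of 0.47. Of 17 nucleic acid sensors tested, 10 were higher and 1 lower, the DNA sensor Tlr9 at -0.65.

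Of the guanylate-binding proteins and immunity-related GTPases, 12 of 16 tested members were higher and 0 lower, with a median of 1.26. Gbp4 had 27.9, 18.3 and 21.9 CPM in the libraries labelled ∆IKKe, against 2.73, 4.66 and 5.07 CPM in the ∆control libraries. Gbp3 had 411, 357 and 337 CPM in the libraries labelled ∆IKKe, against 89.7, 95.4 and 129 CPM in the ∆control libraries. The groups did not overlap in either gene, and the log2 changes were 2.47 ± 0.29 and 1.82 ± 0.13. Irgm1, Irgm2, Tgtp1 and Gvin1 did not pass, at 0.15, -0.044, -0.22 and 0.29. Several of these GTPases have near-identical copies among which reads can be split, so that single members are uncertain.

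Promoters of 5 genes are printed to set the letters beside these directions, for Isg15 and Gbp3, which rose, Ifit1, which did not pass, Cxcl10, which fell, and Cxcl1, a rising NF-kB target. Each is the 250 bases upstream of a RefSeq transcript start on GRCm38.p6, read in the direction of transcription, and capitals mark matches to 3 motifs. The motifs are an interferon-stimulated response element, an NF-kB site and the AP-1 site TGANTCA, each searched on both strands, with overlapping matches counted separately.

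Isg15, chr4:156200819-156201068, minus strand: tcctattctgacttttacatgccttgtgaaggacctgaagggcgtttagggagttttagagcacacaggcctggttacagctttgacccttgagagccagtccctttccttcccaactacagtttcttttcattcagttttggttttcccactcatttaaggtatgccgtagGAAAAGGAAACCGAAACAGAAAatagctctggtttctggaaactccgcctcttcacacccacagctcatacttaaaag

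Gbp3, chr3:142559794-142560043, plus strand: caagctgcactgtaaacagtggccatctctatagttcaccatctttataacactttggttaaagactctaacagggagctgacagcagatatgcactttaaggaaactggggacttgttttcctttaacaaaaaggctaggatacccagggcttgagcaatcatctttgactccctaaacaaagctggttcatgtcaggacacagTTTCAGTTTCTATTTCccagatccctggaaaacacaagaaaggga

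Ifit1, chr19:34640639-34640888, plus strand: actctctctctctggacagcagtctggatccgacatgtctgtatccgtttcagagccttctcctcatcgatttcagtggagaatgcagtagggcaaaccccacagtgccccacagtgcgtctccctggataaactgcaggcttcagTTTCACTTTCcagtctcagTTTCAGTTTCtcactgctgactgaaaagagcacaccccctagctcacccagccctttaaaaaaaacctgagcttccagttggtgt

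Cxcl10, chr5:92348890-92349139, minus strand: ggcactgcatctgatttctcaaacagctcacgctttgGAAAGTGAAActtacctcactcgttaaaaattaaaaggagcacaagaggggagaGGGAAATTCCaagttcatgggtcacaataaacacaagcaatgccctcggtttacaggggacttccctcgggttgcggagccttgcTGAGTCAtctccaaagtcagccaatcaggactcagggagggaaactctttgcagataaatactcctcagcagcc

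Cxcl1, chr5:90890995-90891244, plus strand: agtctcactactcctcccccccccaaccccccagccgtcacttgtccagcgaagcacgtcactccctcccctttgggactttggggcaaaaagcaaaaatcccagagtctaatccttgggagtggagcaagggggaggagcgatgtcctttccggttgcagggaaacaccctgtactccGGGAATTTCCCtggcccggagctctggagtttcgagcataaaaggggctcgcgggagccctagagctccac

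Isg15 held 3 overlapping matches to the interferon element, from 78 to 57 bases upstream, Gbp3 held 2 overlapping ones and Ifit1 held 2 separate ones. A further Gbp3 window, chr3:142560106-142560355, held no match and is not printed. In the shares below a gene counts if any of its windows held a match. Cxcl10 held the interferon element, the NF-kB site and the AP-1 site, and Cxcl1 held the NF-kB site read on both strands at almost the same place. The interferon element was in the window of 3.46% of 27025 genes, the NF-kB site in 1.36% and the AP-1 site in 7.82%. The interferon element was in all 10 GBP and IRG genes with a window, of which 7 rose. In the antiviral list the interferon element was in 7 of 22 genes that rose and in 6 of 11 that did not. Over all genes tested with a window the interferon element was in 5.33% of those higher, 3.04% of those lower and 2.98% of those not called. A match is a string of letters and does not show binding.

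Antigen presentation rose broadly. Of 22 genes of MHC class I presentation 21 were higher and 0 lower, with a median of 0.87, and the counts were 21 and 0 without the third ∆IKKe library. H2-K1, a classical class I heavy chain, had 2959, 2961 and 2516 CPM in the libraries labelled ∆IKKe, against 1433, 1516 and 1539.6 CPM in the ∆control libraries, and Tap1, the peptide transporter, had 419.6, 358 and 276 CPM in the libraries labelled ∆IKKe, against 158, 209 and 209.9 CPM in the ∆control libraries. All libraries labelled ∆IKKe were above ∆control for both. The non-classical H2-Q6 and H2-Q7 rose by 2.94 and 2.57, but their sequences are so alike that reads may be shared between them. Of 20 class II and costimulation genes 13 were higher and 1 lower. H2-Ab1 had 164, 168 and 144 CPM in the libraries labelled ∆IKKe, against 67.2, 85.8 and 81.2 CPM in the ∆control libraries, and Cd86, a ligand for CD28, had 24.5, 22.1 and 21.1 CPM in the libraries labelled ∆IKKe, against 8.56, 8.93 and 8.48 CPM in the ∆control libraries, a log2 change of 1.38 ± 0.11. Ciita, the master regulator of class II genes, was at -0.044 and did not pass. The lower member, H2-DMa, overlapped between the groups and did not pass without the third ∆IKKe library.

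Cell cycle genes were the list that fell. Of 37 tested, 4 were higher and 23 lower, with a median of -0.56, and 4 and 20 without the third ∆IKKe library. Ccnd1, which encodes cyclin D1, had 20.2, 18.3 and 17.9 CPM in the libraries labelled ∆IKKe, against 89.2, 79.2 and 83.1 CPM in the ∆control libraries. All libraries labelled ∆IKKe were far below ∆control, and Ccnd1 fell by 2.16 ± 0.076 (edgeR adjusted p = 3.71e-14). Ccnd2, its paralogue cyclin D2, rose by 2.74 ± 0.12, with 83.1, 69.9 and 63.7 CPM in the libraries labelled ∆IKKe, against 9.62, 9.88 and 12.9 CPM in the ∆control libraries, again without overlap. Among mitotic genes Plk1 had 4.69, 3.39 and 1.91 CPM in the libraries labelled ∆IKKe, against 10.2, 7.71 and 11.3 CPM in the ∆control libraries and Cdc20, an activator of the anaphase-promoting complex, had 2.61, 2.64 and 2.05 CPM in the libraries labelled ∆IKKe, against 7.94, 10.5 and 7.34 CPM in the ∆control libraries. Their levels were low in every library, and every library labelled ∆IKKe was below ∆control. Cdkn1a, the cyclin-dependent kinase inhibitor p21, had 1085, 997 and 832 CPM in the libraries labelled ∆IKKe, against 530.1, 611 and 628 CPM in the ∆control libraries and rose by 0.72 ± 0.087, while the inhibitor Cdkn2c fell by 1.85. Myc, from the list of immediate early genes, fell by 1.07. Mki67 was at 1.12 with the third ∆IKKe library and at -0.25 without it, and passed in neither case.

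Sesn1, a stress-induced inhibitor of mTORC1 signalling, had the largest named fall, with 8.7, 10.6 and 12.4 CPM in the libraries labelled ∆IKKe, against 45.9, 62.9 and 43.2 CPM in the ∆control libraries, a log2 change of -2.25 ± 0.12. The transcription factor Mef2c had 14, 15 and 13.9 CPM in the libraries labelled ∆IKKe, against 48, 35.1 and 45.7 CPM in the ∆control libraries. Neither overlapped between the groups. The other genes of the 12 largest falls were Fgf13, the G protein regulator Rgs2, the small GTPase Rhoj, the phosphatase Ptpro and the cannabinoid receptor Cnr2, with log2 changes of -1.97, -1.76, -1.67, -1.63 and -1.61.

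Of the early response genes, 14 of 25 were higher and 4 lower 8 h after R837, beside 18.3% and 16.2% of all genes tested. Fos, a subunit of AP-1, had 167, 178 and 175 CPM in the libraries labelled ∆IKKe, against 339, 302 and 294 CPM in the ∆control libraries and fell by 0.85 ± 0.063. Its relatives Fosl1 and Fosl2 rose by 2.39 and 1.29. The MAP kinase phosphatases Dusp1, Dusp2 and Dusp5 rose by 0.98, 0.94 and 1.27. Egr2 and Spry2 fell by 1.31 and 0.61.

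Glycolysis and HIF1 targets had 9 of 25 tested members higher and 0 lower, beside 18.3% and 16.2% of all genes tested. Hif1a, the oxygen-regulated transcription factor, had 1473, 1378 and 1312 CPM in the libraries labelled ∆IKKe, against 571, 593 and 618 CPM in the ∆control libraries and rose by 1.22 ± 0.050. Pfkfb3, which makes the activator of phosphofructokinase, had 2703, 2729 and 3290.3 CPM in the libraries labelled ∆IKKe, against 627, 656 and 763 CPM in the ∆control libraries. Both separated fully between the groups. The glucose transporter Slc2a1, the hexokinase Hk2 and Vegfa rose by 1.04, 1.21 and 1.58, Slc2a1 no longer passing without ∆control replicate 1 (1.0). Of the listed enzymes of the glycolytic chain itself, the hexokinase Hk1 and the phosphofructokinase Pfkp also rose, by 0.85 and 0.42, Pfkp no longer passing without ∆control replicate 2 (0.35). The other 9 did not pass and lay between -0.58 for Pgk1 and 0.48 for Pfkl.

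Genes of the receptor side went in both directions. Of 18 Toll-like receptors and coreceptors tested, 5 were higher and 5 lower, with a median of 0.030. For comparison, 18.3% of all genes tested were higher and 16.2% lower. Tlr7, the receptor for R837, had 259.5, 232 and 183 CPM in the libraries labelled ∆IKKe, against 144, 144 and 162 CPM in the ∆control libraries. All libraries labelled ∆IKKe were above ∆control, and the log2 change was 0.59 ± 0.12. Unc93b1, the chaperone that carries TLR7 to endosomes, rose by 0.18, a call lost without ∆IKKe replicate 1 (0.16) or ∆control replicate 1 (0.13), while Slc15a4, an endolysosomal transporter needed for TLR7 signalling, fell by 0.71 ± 0.13, with 52.4, 52.5 and 36.8 CPM in the libraries labelled ∆IKKe, against 71.5, 89.2 and 71.9 CPM in the ∆control libraries. Without the third ∆IKKe library and ∆control replicate 2, Slc15a4 was at -0.45. Tlr4 and Tlr13 fell by 0.51 and 0.73, and Cd14 rose by 0.82.

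Macrophage identity genes had 6 of 27 higher and 7 lower, with a median of -0.015. The shares over all genes tested were 18.3% higher and 16.2% lower. Adgre1, the F4/80 antigen, had 5544, 5687 and 4824 CPM in the libraries labelled ∆IKKe, against 7313, 6946 and 7554 CPM in the ∆control libraries and fell by 0.44 ± 0.061. Cx3cr1, the fractalkine receptor, had 139, 138 and 120.1 CPM in the libraries labelled ∆IKKe, against 302, 284 and 261 CPM in the ∆control libraries and fell by 1.09 ± 0.083. Siglec1, a sialic acid receptor induced by interferon, rose by 1.34. Lyz2 and Mrc1 were at 0.050 and -0.072 and did not pass. In bulk RNA fewer cells of a type and less RNA per cell cannot be told apart. The summed level of 8 macrophage markers, before TMM scaling, was 18413 to 20460 CPM with the ∆IKKe label, against 22026 to 23504 CPM in ∆control. TMM factors were 0.81, 0.81 and 0.86 with the ∆IKKe label, against 0.91, 0.91 and 0.90 in ∆control, so that scaling narrows this gap. Of the 8 markers 1 was higher and 2 lower. Fcgr1 went against the sum, with 778, 672 and 732 CPM before scaling with the ∆IKKe label, against 429, 494 and 546 CPM in ∆control. Of 11 neutrophil markers 8 were tested, with a sum of 127 to 233 CPM with the ∆IKKe label, against 46.3 to 59.2 CPM in ∆control, nearly all of it S100a8 and Mmp8. S100a8 rose by 2.37. Mmp8, the neutrophil collagenase, had 34.8, 40 and 55.4 CPM in the libraries labelled ∆IKKe, against 25.7, 20.9 and 24.1 CPM in the ∆control libraries, without overlap, and rose by 0.88. Other markers were near 0, S100a9 with 12 counts over the libraries labelled ∆IKKe and 12 over ∆control, Ly6g with 0 and 1, Elane with 0 and 2 and Retnlg with 0 and 0. The 8 T and NK cell markers summed to 4.59 to 5.70 CPM with the ∆IKKe label, against 2.64 to 3.52 CPM in ∆control. Most of that was Cd4, with 517 counts over the libraries labelled ∆IKKe and 227 over ∆control. Klrb1c had 25 and 38 counts, and Cd3d, Cd3g, Trac and Ncr1 had none. B cell markers summed to 1.55 to 3.03 CPM with the ∆IKKe label, against 4.65 to 8.92 CPM in ∆control. Whether these markers have a part in the gene lists that rose was not tested.

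The same label was next read in TBK1-WT cells after R837, which addresses whether the change with the ∆IKKe label depends on TBK1. There 168 genes were higher (1.14%) and 104 lower (0.708%). Replicate 1 of TBK1-WT ∆control had a nuclear RNA level of 8.95, against 5.11 in each of the other TBK1-WT ∆control libraries. These calls were not recomputed without it. The TBK1-WT and TBK1-cKD comparisons share no library. Of the 168 genes higher in TBK1-WT, 164 were also higher in TBK1-cKD, which is 97.6% of the first list and 6.11% of the second. Of the 104 lower, 85 were also lower in TBK1-cKD (81.7% and 3.57%), and no gene was called in opposite directions. Nos2 had, in TBK1-WT, 459, 401 and 384 CPM with the ∆IKKe label, against 179, 171 and 166 CPM in ∆control. Il1a had 100.0, 96.3 and 84.9 CPM with the ∆IKKe label, against 32.7, 38.5 and 32.3 CPM in ∆control there. Both genes rose in TBK1-WT without overlap, by 1.27 and 1.44 on the log2 scale.

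The difference between the change in TBK1-cKD and the change in TBK1-WT was tested as an interaction term. It was positive for 1946 genes (13.3%) and negative for 1307 (8.9%). It was larger in TBK1-cKD for 16 of 24 inflammatory cytokines, 18 of 27 effectors, 17 of 22 class I genes, 16 of 29 NF-kB genes and 29 of 43 antiviral genes, and negative for none of the members of these lists. The WT medians of these lists differed. Inflammatory cytokines had a median of 0.43 in TBK1-WT with 8 members higher, and effectors 0.35 with 10 higher. The antiviral list had a median of -0.17 with 1 member higher, and the GTPases -0.16 with none. For Il6 the difference was 1.62 ± 0.18 (SE; edgeR adjusted p = 6.68e-06), beside a change of 1.16 in TBK1-WT. For Ifi44 it was 2.69 ± 0.26, beside -0.045 in TBK1-WT, where the values were 70.3, 73.9 and 76.9 CPM with the ∆IKKe label, against 66.2, 76.7 and 85.4 CPM in ∆control. Tnf, Nfkbia and Ifit1 had differences of 0.091, 0.13 and 0.46, which did not pass. Cell cycle genes had a positive difference for 3 and a negative one for 16 of 37, and for Ccnd1 it was -1.65 ± 0.10 (edgeR adjusted p = 4.09e-09). One TBK1-WT ∆control library, replicate 1, also had a high nuclear RNA level, so that the 2 libraries that stand apart in this respect enter the difference with the same sign. With both left out it was positive for 1559 genes and negative for 1010. Without TBK1-WT ∆control replicate 1 alone it was positive for 1153 genes and negative for 816, and positive counts were 1208 without TBK1-cKD ∆IKKe replicate 3 and 1227 without TBK1-WT ∆IKKe replicate 2. The TBK1-WT medians and the counts per gene list given here include both libraries of high nuclear RNA level or the TBK1-WT one, and were not recomputed without them.

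**Figure D5:**
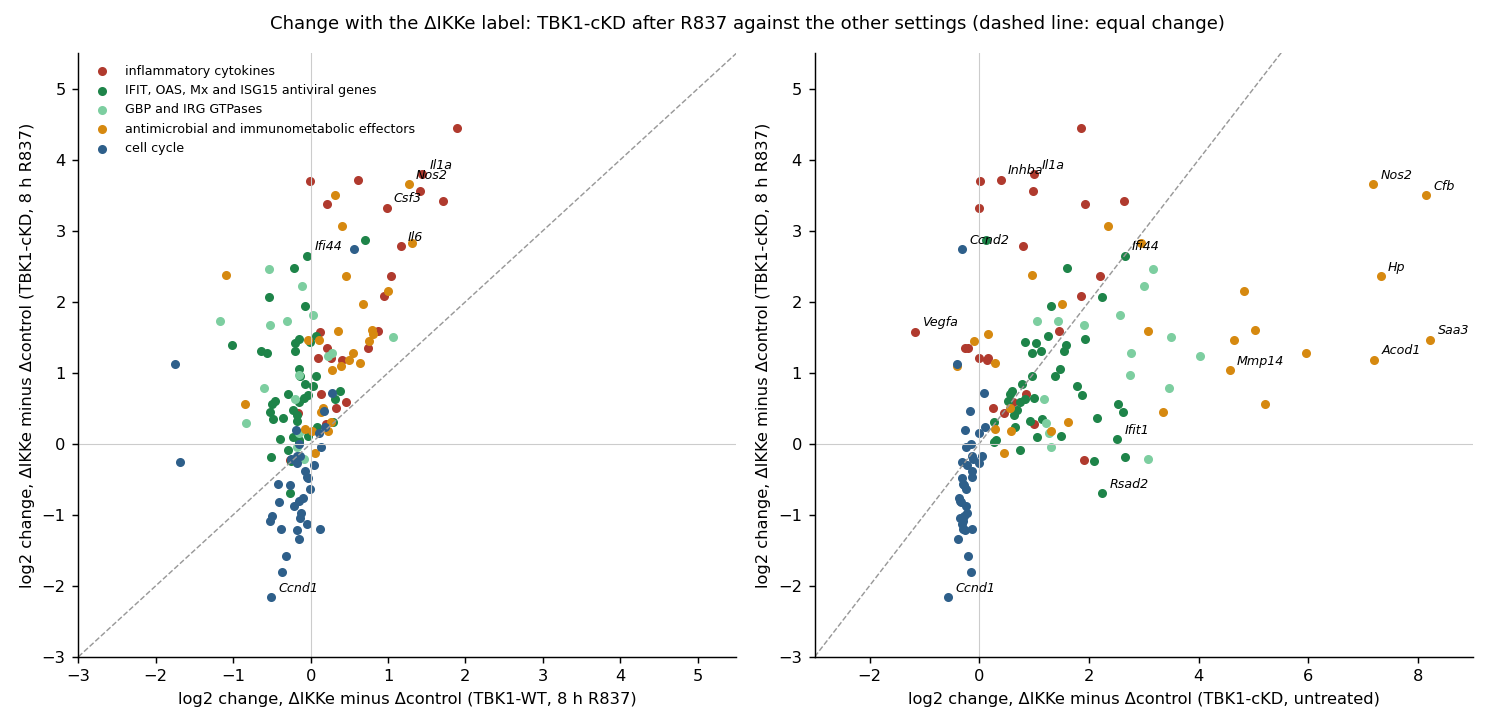
Log2 change with the ∆IKKe label over ∆control in TBK1-cKD macrophages after 8 h of R837 (vertical) against the same change in TBK1-WT macrophages after R837 (left) and in untreated TBK1-cKD macrophages (right), for members of 5 gene lists; the dashed line marks equal change. On the left cytokines such as Il1a lie above the line and Ifi44 near 0 on the horizontal axis, and on the right Saa3 and Acod1 lie beyond 7 on the horizontal axis and below the line.

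Without R837, TBK1-cKD cells labelled ∆IKKe already differed from ∆control, with 1145 genes higher (7.8%) and 525 lower (3.58%). These 6 untreated libraries share none with the R837 comparison. Of the genes higher untreated, 625 were also higher after R837, which is 54.6% of the untreated list and 23.3% of the R837 list. A further 150 (13.1% of the untreated list) were lower after R837. Of those lower untreated, 224 were lower after R837 (42.7% and 9.40%) and 83 higher (15.8% of the untreated list). Over all genes tested 18.3% were higher and 16.2% lower after R837, so that the calls in opposite directions were no more frequent than in all genes. The lists that were highest untreated were not the cytokines. Effectors had a median of 2.96 with 21 of 27 higher, GTPases 2.67 with 15 of 16 higher, and antiviral genes 1.13 with 40 of 43 higher. Inflammatory cytokines had a median of 0.71 with 7 of 24 higher and 1 lower. Some of them were at or near the limit of counting in these 6 untreated libraries. Csf3 was at 0 CPM, Il19 at no more than 0.074 CPM and Il1a at no more than 0.38 CPM. For such genes an untreated change could hardly be called.

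Acod1 had, untreated, 179.5, 165 and 161 CPM with the ∆IKKe label, against 1.29, 0.909 and 1.15 CPM in ∆control. Saa3 had 466, 405 and 403 CPM with the ∆IKKe label, against 2.42, 0.763 and 0.668 CPM in ∆control, and Ccl5 had 114, 95 and 87.8 CPM with the ∆IKKe label, against 1.29, 1.02 and 0.965 CPM in ∆control. In all 3 genes the libraries labelled ∆IKKe lay far above ∆control, with log2 differences of 7.21 ± 0.14, 8.23 ± 0.49 and 6.47 ± 0.27. Cxcl10 had 23.6, 19.3 and 22.1 CPM with the ∆IKKe label, against 3.06, 1.34 and 1.56 CPM in ∆control and Ifit1 had 84.2, 68.4 and 73.6 CPM with the ∆IKKe label, against 16.5, 9.38 and 13.3 CPM in ∆control. Both were thus higher untreated, by 3.38 and 2.52, whereas after R837 Cxcl10 was lower and Ifit1 did not pass. Hif1a had, untreated, 118, 118 and 118 CPM with the ∆IKKe label, against 118, 118 and 117 CPM in ∆control, which overlapped between the groups and did not pass.

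The difference between the change after R837 and the change untreated was positive for 1188 genes (8.09%) and negative for 1482 (10.1%). Negative differences were found for 17 of 27 effectors, 14 of 43 antiviral genes, 13 of 29 NF-kB genes and 7 of 16 GTPases, against positive ones for 2, 4, 2 and 1. For Cxcl10 it was -4.65 ± 0.42 (SE; edgeR adjusted p = 7.25e-08) and for Nfkbia -1.08 ± 0.089. Positive differences were found for 7 of 24 inflammatory cytokines against 2 negative ones, for 14 of 25 early response genes against 4, and for 10 of 25 glycolysis and HIF1 genes against 0. For Il1a it was 2.79 ± 0.48 and for Hif1a 1.22 ± 0.071. Untreated Il1a was near the limit of counting, with 0.33, 0.26 and 0.38 CPM with the ∆IKKe label, against 0.16, 0.22 and 0.11 CPM in ∆control. The size of its difference is therefore uncertain. Cell cycle genes had 14 of 37 negative and 3 positive, and Ccnd1 differed by -1.59 beside an untreated change of -0.57. Of the class I genes 1 was positive and 2 negative, with medians of 0.87 after R837 and 0.82 untreated. All 6 untreated libraries had a high nuclear RNA level, shared after R837 by the third ∆IKKe library. With that level as a term in the model the difference was positive for 1912 genes and negative for 2207.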

How the data were processed

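The authors deposited 1 table per library with raw counts of exonic reads per Ensembl gene and RPKM values made from them; reads were aligned with GSNAP to GRCm38, per the submitters' processing notes, while no source used here names the counting tool or its strand setting. The kit does not mark strand, so that overlapping and antisense genes cannot be separated. The deposited RPKM values were not used. Counts of 52636 genes in 24 libraries, 3 individual mice per group per the labels' protocols, were fitted with edgeR 4.0.16 in R 4.3.3 (TMM scaling, 14681 genes kept by filterByExpr with a minimum count of 10, 1 mean for each of 8 groups, quasi-likelihood F test, Benjamini-Hochberg adjustment, threshold 0.05). The fit left 16 residual degrees of freedom and a common biological variation (BCV) of 0.116. Standard errors are the log2 change over the root of F. Differences between comparisons are interaction contrasts of the same model, and all libraries share 1 estimate of the spread. The model was tested on simulated data. Library totals were 19.7 to 41.3 M counts. Genes were named by rule: the 12 largest rises and 12 largest falls among genes past the threshold with and without the library of high nuclear RNA, with separate groups and a mean of at least 5 CPM; the 5 largest differences each way; any member of the lists; and check genes. Some genes that the rule names are not reported here. Members and gene lists were chosen with earlier results of these data known. Gene names and coordinates come from the files and GENCODE vM21, promoters from RefSeq (GRCm38.p6). The motifs searched in them are common consensus forms and come from no file of the study. Alternatives were DESeq2 1.42.0, RLE scaling, no count filter, fewer libraries and a nuclear RNA term. Libraries were not paired.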

Additional observations from a re-analysis of the deposited data

Results flagged for a closer look

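The change with the ∆IKKe label after R837 differed between TBK1-cKD and TBK1-WT macrophages by the interaction test for 1946 genes with a positive difference (TBK1-cKD minus TBK1-WT) and 1307 with a negative one. The 5 largest positive differences by the naming rule were Slfn4 with 6.73, Neat1 with 6.28, Dst with 3.78, Slamf1 with 3.74 and Cfb with 3.19 on the log2 scale. Slfn4 had 2.91, 2.61 and 48.5 CPM with the ∆IKKe label, against 0.792, 0.832 and 1.33 CPM in ∆control in TBK1-cKD, and 0.468, 0.393 and 0.569 CPM with the ∆IKKe label, against 6.78, 0.394 and 0.637 CPM in ∆control in TBK1-WT. The high values of Slfn4, Neat1 and Dst sit in the TBK1-cKD ∆IKKe and TBK1-WT ∆control libraries of high nuclear RNA level, and without both libraries the differences were 1.58, 0.25 and 0.76, of which that of Neat1 no longer passed. Slamf1 and Cfb, a membrane receptor and complement factor B, kept differences of 3.93 and 2.71 without those libraries. The 5 largest negative differences were Fgf13 with -1.88, the C-type lectin Clec4b1 with -1.71, Rhoj with -1.67, Ccnd1 with -1.65 and Sesn1 with -1.64. Rhoj had 4.28, 4.13 and 2.4 CPM with the ∆IKKe label, against 12, 11.4 and 10.4 CPM in ∆control in TBK1-cKD, and 7.16, 7.71 and 6.57 CPM with the ∆IKKe label, against 5.87, 7.79 and 7.76 CPM in ∆control in TBK1-WT, where the groups overlapped.

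The change with the ∆IKKe label in TBK1-cKD cells also differed between R837 and no treatment, for 1188 genes with a positive difference (R837 minus untreated) and 1482 with a negative one. Large positive differences were those of the orphan receptor Gpr35 with 3.83, the vasodilator peptide gene Adm with 3.62, Slamf1 with 3.41 and the mTORC1 inhibitor Ddit4 with 3.35. Gpr35 had 91.6, 73.7 and 86.9 CPM with the ∆IKKe label, against 8.74, 7.44 and 12 CPM in ∆control after R837, and 4.83, 4.87 and 4.68 CPM with the ∆IKKe label, against 3.99, 9.63 and 9.84 CPM in ∆control untreated, and in the untreated cells the groups overlapped. The 5 largest negative differences were Saa3 with -6.76, the formyl peptide receptor genes Fpr2 with -6.40 and Fpr1 with -5.36, Acod1 with -6.02 and Rasgrp1 with -5.06. Fpr2 had 243, 232 and 173 CPM with the ∆IKKe label, against 94.7, 97 and 107 CPM in ∆control after R837, and 8.46, 8.11 and 7.65 CPM with the ∆IKKe label, against 0, 0.0363 and 0.111 CPM in ∆control untreated. Untreated ∆control libraries held close to no counts of Fpr1, Fpr2 and Rasgrp1, so that the fitted sizes of these differences depend on the prior count and are no bounds. Slamf1 was low untreated in both groups, with 0.33, 0.11 and 0.21 CPM with the ∆IKKe label, against 0.022, 0.11 and 0.15 CPM in ∆control. The size of the Slamf1 difference is therefore uncertain too.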

How the results depend on the processing

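Counts of calls moved by more than 1.5 times in few settings. With only the libraries of the groups compared in the fit, and so fewer degrees of freedom, 1087 genes were higher and 687 lower in TBK1-cKD after R837; the difference to TBK1-WT was then positive for 559 and negative for 352 genes, and the difference to untreated cells positive for 754. With nuclear RNA level as a term, the difference to untreated cells was positive for 1912 genes, and 3121 genes were higher and 2845 lower after R837; the cause was not tested. Leaving out 1 library at a time gave 2251 to 2926 genes higher and 1944 to 2385 lower after R837, and for the difference to TBK1-WT 1153 to 2595 positive and 816 to 1677 negative genes. The lowest of these counts, 1153 and 816, came without TBK1-WT ∆control replicate 1. DESeq2 gave 2866 higher and 2510 lower genes after R837, RLE scaling 2688 and 2384 and no count filter 2478 and 2217. Of 192 results on single genes, 158 kept their direction and side of the threshold in every alternative. Malat1 and Xist turned to -0.053 and -0.037 when the third ∆IKKe library and ∆control replicate 2 were left out together, an alternative added after seeing the data. Ikbke missed the threshold in DESeq2, at -0.80. Ifit2 passed in some alternatives, with 0.56 in DESeq2, 0.67 without ∆IKKe replicate 2 and 0.83 without ∆control replicate 3, Ifit3 with 0.64 without the last and Il12a with 2.08 without ∆control replicate 1. Tnf, Casp8, Gch1, Cxcl11, Ikbkg, Irak1, Nfkb1, Relb and Spry2 kept their direction and passed in every alternative but the fit to the 6 libraries compared alone. Differences of genes with few counts, such as the interferons, were not detectable at this depth. No paired analysis was possible because the labels give the libraries no replicate numbers.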

Other observations

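Lists with no link to innate signalling by name were mixed in TBK1-cKD cells after R837. Their counts stand beside 18.3% of all genes tested that were higher and 16.2% that were lower. Of 27 genes of cholesterol synthesis and LXR targets 6 were higher and 8 lower with the ∆IKKe label, with a median of -0.13. Dhcr7, the last enzyme of the synthesis, had 6.74, 6.03 and 5.11 CPM in the libraries labelled ∆IKKe, against 16.4, 20.4 and 15.3 CPM in the ∆control libraries. Every library labelled ∆IKKe was below ∆control, and Dhcr7 fell by 1.54 ± 0.12 (edgeR adjusted p = 4.52e-09). Cyp51, a further enzyme of the pathway, fell by 0.59, and by 0.37 without the third ∆IKKe library and ∆control replicate 2. Ch25h, which makes 25-hydroxycholesterol, had 79.8, 66.9 and 61 CPM in the libraries labelled ∆IKKe, against 17.9, 27.1 and 18.1 CPM in the ∆control libraries and rose by 1.73 ± 0.18. Its groups did not overlap.

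Of 24 genes of ATF4 and the unfolded protein response 7 were higher and 6 lower. Ddit4 had 47.5, 46.4 and 47.3 CPM in the libraries labelled ∆IKKe, against 6.04, 7.21 and 5.68 CPM in the ∆control libraries, a log2 change of 2.91 ± 0.32, with no overlap, and Ddit3 and Sesn2 rose by 1.25 and 0.83. Asns, asparagine synthetase, fell by 0.69, and by 0.39 without the third ∆IKKe library; its call was lost when ∆control replicate 2 was left out as well (-0.39) and in the fit to the 6 libraries alone (-0.71). Of 19 NRF2 targets 7 were higher and 6 lower, with Slc7a11, the cystine transporter, at 1.63 and Ftl1, ferritin light chain, at -0.90; Ftl1 has processed copies among which reads can be split, and it was at -0.45 without those 2 libraries. Of 29 autophagy and lysosome genes 8 were higher and 5 lower. Of 13 mitochondrially encoded genes tested 6 were lower and 1 higher, and 5 were lower and 0 higher without the third ∆IKKe library. Mitochondrial RNA made up 0.430% to 0.451% of counts with the ∆IKKe label, against 0.635% to 0.683% in ∆control. In that list mt-Cytb fell by 0.56 and mt-Nd4 by 0.43.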
